A study of Mus musculus with 19 samples.

Results

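The antigen presentation and interferon-response genes described here are 38 genes of the mouse, taken by symbol from a table of 24537 genes, and each of the 38 symbols was found in it. They cover the class I presentation machinery, the transcription factors that carry an interferon signal to DNA, sensors of foreign RNA, and proteins whose genes interferon switches on. Their levels were read in RNA from sorted nuclei of cortical astrocytes, the support cells that tile the cortex around synapses and vessels. The sort kept nuclei with SOX9, an astrocyte transcription factor, and without NEUN, a neuronal nuclear protein, from mice of postnatal day 26 to 28 on the C57BL/6J strain, reared without treatment.

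The 19 libraries fell into 4 genotypes, all of them carrying the floxed Smad4 allele on both chromosomes (Smad4 fl/fl). The double mutant (n = 4) was Fmr1 -/y with the GFAP-cre+ transgene, and Fmr1 KO (n = 5, FXS in the sample names) was Fmr1 -/y without the transgene. Smad4 cKO (n = 6) was Fmr1 +/y with GFAP-cre+, and WT (n = 4) was Fmr1 +/y without it. Fmr1 encodes FMRP, an RNA-binding protein whose loss causes fragile X syndrome, and Smad4 encodes a shared mediator of BMP and TGF-beta signals. The Cre line is named for the Gfap promoter, which is active in astrocytes and also in neural progenitors. The Fmr1 allele is lost in every cell of the animal. Cre was present only in the mice labelled Smad4 cKO or double mutant, so the presence of Cre and the loss of Smad4 cannot be told apart. Fmr1 RNA averaged 37.0 ± 1.36 scaled TPM in the double mutant, 38.8 ± 1.94 in Fmr1 KO, 23.8 ± 2.72 in Smad4 cKO and 26.1 ± 4.27 in WT (SD), and so was higher in the libraries labelled as lacking the protein (log2 change 0.59, limma adjusted p = 0.000529). Smad4 RNA averaged 32.1 to 33.2 scaled TPM in the 4 groups. Values summed over a gene resolve neither allele, so they do not check the genotypes. The design text calls the libraries biological replicates without saying that each is 1 animal, so the p-values below measure the spread between libraries.

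Cells sense viral RNA through DDX58 and IFIH1, which signal through MAVS to switch on type I interferon genes. Interferon binds IFNAR1 and IFNAR2, the kinases JAK1 and TYK2 then phosphorylate STAT2, and a complex that holds STAT2 and IRF9 binds interferon-stimulated response elements (ISRE) in DNA. The genes so induced include antiviral effectors and the class I machinery, in which the proteasome cuts proteins, TAP1 and TAP2 carry the peptides into the endoplasmic reticulum, and H2-K1 or H2-D1 with B2M shows them at the cell surface. In the brain, microglia and the endothelial cells of vessels are known for high basal levels of many of these genes, and astrocytes raise them during infection and inflammation.

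Promoter windows of 300 bases, from 250 before the annotated start to 50 after it, were found for 30 of the 38 genes among the RefSeq sequences of GRCm38.p6. The ISRE core, spelled as GAAA, any 2 bases and GAAA again, and searched on both strands, was present in 15 of these 30 genes (50%), against 3.99% of all 27025 gene symbols with a window. The gamma-activated site, TTCNNNGAA on either strand, was present in 6 of the 30 (20%), against 9.55% of all symbols. The windows of 4 genes are shown because the comparisons below turn on their levels: Helz2, Oas1a, Ifit3 and Isg15. Each is written 5′ to 3′ on the strand of its gene, in lower case, with the matches to the ISRE core in capitals. The windows lie at chr2:181241978-181242277 (minus strand) for Helz2, chr5:120907476-120907775 (minus) for Oas1a, chr19:34583279-34583578 (plus) for Ifit3 and chr4:156200769-156201068 (minus) for Isg15.
Helz2: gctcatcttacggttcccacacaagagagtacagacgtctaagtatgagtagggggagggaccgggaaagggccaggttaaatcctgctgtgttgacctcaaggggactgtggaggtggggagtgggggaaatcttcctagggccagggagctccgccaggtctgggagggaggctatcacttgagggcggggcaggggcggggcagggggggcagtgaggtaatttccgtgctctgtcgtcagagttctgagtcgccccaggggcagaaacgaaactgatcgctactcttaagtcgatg
Oas1a: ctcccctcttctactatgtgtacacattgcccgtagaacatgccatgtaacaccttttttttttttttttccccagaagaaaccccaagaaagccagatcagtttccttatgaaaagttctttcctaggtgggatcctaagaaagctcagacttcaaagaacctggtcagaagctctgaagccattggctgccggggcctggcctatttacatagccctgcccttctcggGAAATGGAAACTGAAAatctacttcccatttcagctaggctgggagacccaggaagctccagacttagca
Ifit3: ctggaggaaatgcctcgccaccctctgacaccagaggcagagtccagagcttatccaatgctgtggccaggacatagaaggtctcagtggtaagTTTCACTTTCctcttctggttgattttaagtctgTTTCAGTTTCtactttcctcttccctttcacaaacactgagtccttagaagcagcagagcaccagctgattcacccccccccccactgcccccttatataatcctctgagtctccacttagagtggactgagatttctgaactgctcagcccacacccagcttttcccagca
Isg15: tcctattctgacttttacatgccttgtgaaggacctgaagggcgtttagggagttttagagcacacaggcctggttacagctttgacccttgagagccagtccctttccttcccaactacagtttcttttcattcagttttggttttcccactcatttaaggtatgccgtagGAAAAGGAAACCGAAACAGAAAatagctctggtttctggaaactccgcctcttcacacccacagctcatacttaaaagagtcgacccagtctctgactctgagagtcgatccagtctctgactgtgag
The Oas1a window holds 2 matches that overlap and so form 1 run of capitals, and it also holds 1 gamma-activated site. The Ifit3 window holds 2 separate matches on the opposite strand. The Isg15 window holds 3 matches, which run into each other. The Helz2 window holds 0 matches to these letters. Such matches describe the sequence and do not show that a factor binds there.

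Levels were read as TPM, a relative abundance per transcript length, divided by a library factor, and are called scaled TPM. H2-K1, a classical class I heavy chain, had the highest mean of the 38 genes, at 43.0 scaled TPM over all 19 libraries. It was followed by Ifi27 (27.0), an interferon-induced mitochondrial protein, Tapbp (25.5), which encodes the tapasin that loads peptide onto class I, Irf9 (24.8) and Stat2 (22.1). Of the 38 genes, 33 had a mean TPM of at least 1 and were tested. The 5 below that level were Psmb8, Nlrc5, Usp18, Iigp1 and Cxcl10.

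With the Fmr1 KO label 28 of the 33 tested genes had a log2 change below 0, against 47% of all genes tested. Of the 33, 1 gene, Helz2, passed the test over all genes, as did 1.53% of all genes. With the Smad4 cKO label 17 of the 33 had a log2 change below 0, against 51.6% of all genes, a count that was 8 without WT replicate 2 and 24 without WT replicate 4. None of the 33 passed for that label. The markers of brain endothelial cells were also lower in the libraries with the Fmr1 KO label, and their values are given below beside these results.

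**Figure D1:**
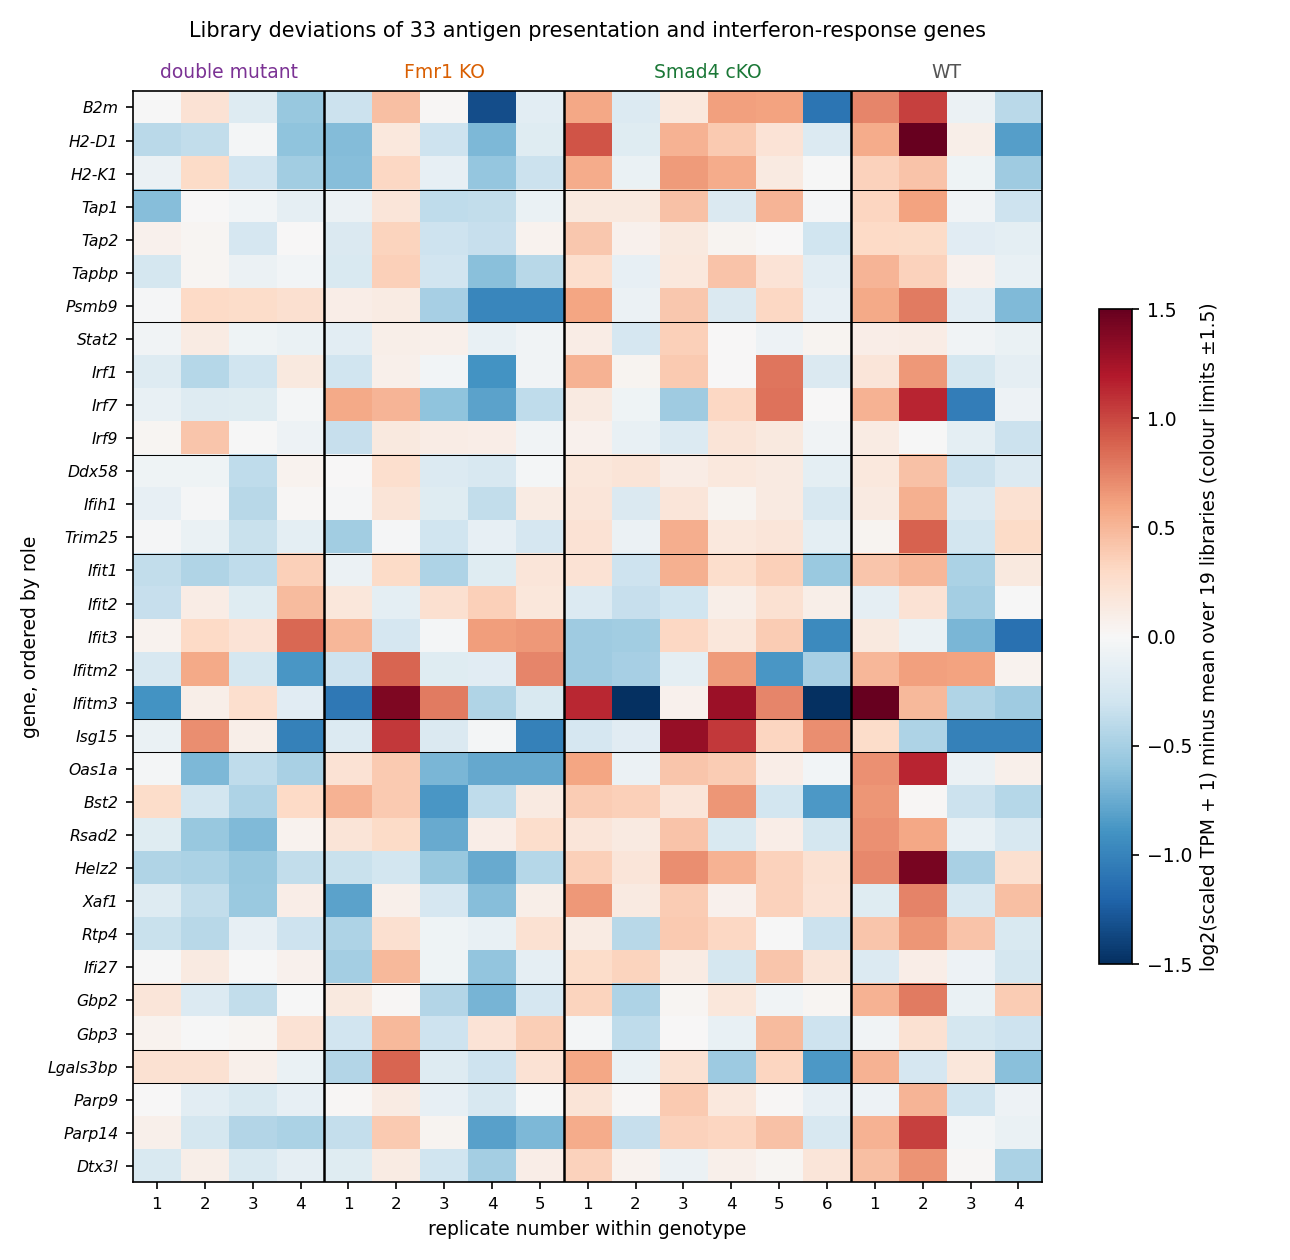
Deviation of 33 tested antigen presentation and interferon-response genes (rows, ordered by role) in each of 19 libraries (columns, grouped by genotype), as log2(scaled TPM + 1) minus the gene's mean over all libraries. Red is above and blue below the mean, and colours stop at 1.5 either way; WT replicate 2 is the highest of the 19 libraries for 16 genes and Fmr1 KO replicate 4 is the lowest for 10.

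The comparison of the Fmr1 label, averaged over mice with and without Cre, asks how the lack of FMRP bears on these genes in astrocyte nuclei. It sets the 9 libraries of the double mutant and Fmr1 KO against the 10 of Smad4 cKO and WT. Helz2, which encodes a helicase that acts as a nuclear receptor co-activator and is itself induced by interferon, lies at chr2:181227615-181242027 on GRCm38 (minus strand). Helz2 had 4.55, 4.48, 4.12 and 4.87 scaled TPM in the double mutant. In Fmr1 KO it had 5.04, 5.29, 4.12, 3.50 and 4.65 scaled TPM. In Smad4 cKO it had a lowest, median and highest value of 7.60, 8.70 and 11.3, and in WT it had 11.5, 19.4, 4.42 and 8.0. The 9 libraries with the Fmr1 KO label lay between 3.50 and 5.29. WT replicate 3, at 4.42, was the one Fmr1-intact library inside that range, and WT replicate 2, the one WT library of day 28, was the highest of all.

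The fitted difference for Helz2 was a log2 change of -0.90 ± 0.17 (SE), with an adjusted p of 0.0186 by limma with Benjamini-Hochberg adjustment over 15049 genes. Of all genes tested, 1.53% passed in this comparison, 1.23% lower and 0.299% higher, so 1 of 33 is near the background share. Within each Cre state the change of Helz2 was of like size: -0.86 ± 0.24 for the double mutant against Smad4 cKO, and -0.95 ± 0.25 for Fmr1 KO against WT. Neither passed on its own by limma (adjusted p = 0.414 and 0.192). An exact two-sided permutation test of the libraries gave p = 0.00476, the smallest that its splits allow, and p = 0.0317, both unadjusted. That test was run for Helz2 alone, after Helz2 had passed in these same libraries, so it is not separate evidence. The double mutant and Smad4 cKO did not overlap for Helz2, the only one of the 33 genes of which this held in that comparison, against 1.42% of all genes lower without overlap. Within postnatal day 26 (4 against 4 libraries) the mean log2 difference of Helz2 was -0.93, and within day 27 (5 against 4) it was -0.57; day 28 held 1 Smad4 cKO and 1 WT library only. Helz2 missed the threshold without double mutant replicate 2 (adjusted p = 0.0506), with quantile normalization (0.0602), with day as a term (0.0552) and on days 26 and 27 alone (0.0522). Without WT replicate 3, Helz2 also passed in Fmr1 KO against WT (adjusted p = 0.0094) and in the double mutant against WT (adjusted p = 0.00692).

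**Figure D2:**
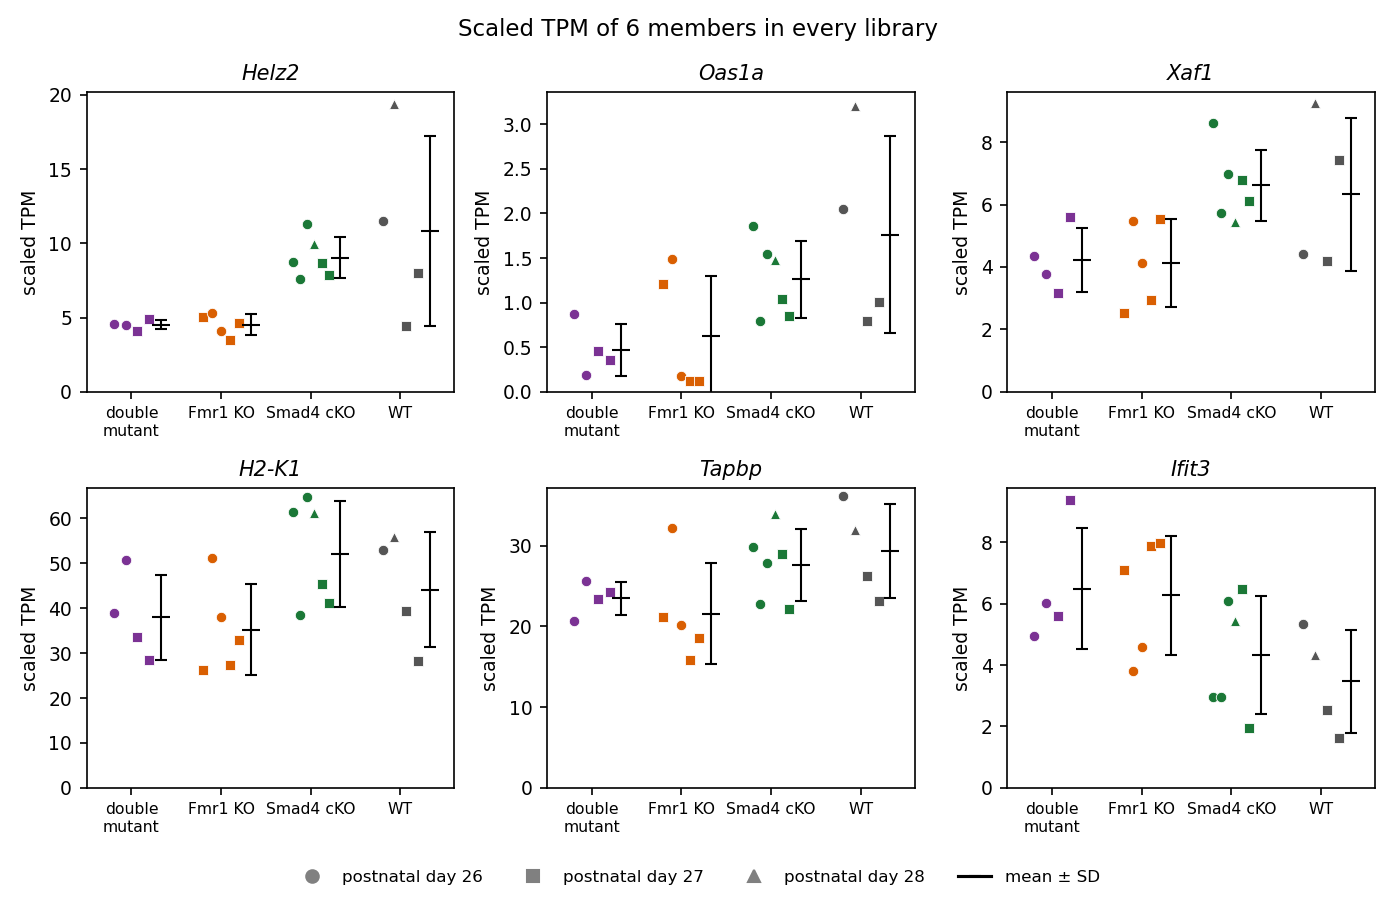
Scaled TPM of Helz2, Oas1a, Xaf1, H2-K1, Tapbp and Ifit3 in every library (points, shaped by postnatal day) for the 4 genotypes, with the mean and SD of each group as bars (cut at 0 for Oas1a). Helz2 lies between 3.50 and 5.29 in all 9 libraries with the Fmr1 KO label, while Ifit3 has its highest value, 9.38, in a double mutant library.

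Beyond Helz2, 11 other genes had an unadjusted p under 0.05 and a lower level with the Fmr1 KO label, so 12 of 33 in all, against 7.14% of all genes. Those 11 did not pass the adjusted threshold by limma. In the double mutant and Fmr1 KO, Oas1a averaged 0.47 and 0.624 scaled TPM, and Gbp2 0.889 and 0.725. Rsad2 averaged 0.566 and 1.04 there, and Psmb9 1.26 and 0.525. Each averaged below 1 over the libraries with the label, so reached the mean TPM of 1 needed for testing only through those without it. All of these genes were below 0, and Oas1a and Gbp2 are among the 12. The median log2 change of the 33 genes was -0.26, against 0.009 for all genes, of which 47% were below 0. Within day 26, 25 of the 33 were below 0 (median -0.21), and within day 27, 21 of the 33 (median -0.11). The 33 genes were read in the same libraries and are not independent of each other.

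The class I molecules were all lower on average with the Fmr1 KO label, by a median log2 change of -0.42 over 3 genes. H2-K1 had 38.9, 50.8, 33.6 and 28.5 scaled TPM in the double mutant, and 26.3, 51.3, 38.0, 27.4 and 32.9 in Fmr1 KO. In Smad4 cKO its lowest, median and highest values were 38.5, 53.3 and 64.8, and in WT it had 52.9, 55.9, 39.4 and 28.2. The groups overlapped, and the log2 change of -0.38 ± 0.16 did not pass (adjusted p = 0.314). H2-D1, the other classical heavy chain, had a median of 10.6 scaled TPM over the 9 libraries with the Fmr1 KO label, against 17.4 over the 10 without it (log2 change -0.66 ± 0.24, adjusted p = 0.226). B2m, the light chain shared by class I molecules, had a median of 14.9 scaled TPM with the Fmr1 KO label, against 22.2 without it, and ranged from 6.06 to 35.2 over the libraries. H2-K1 and H2-D1 are near-identical in much of their sequence, so reads may have been split between them.

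The genes of peptide supply and loading were below 0 for 4 of 4 tested, with a median of -0.30. Tapbp had 20.7, 25.6, 23.4 and 24.2 scaled TPM in the double mutant and 21.1, 32.2, 20.2, 15.8 and 18.5 in Fmr1 KO. Its lowest, median and highest values in Smad4 cKO were 22.2, 28.5 and 33.9, and WT had 36.1, 31.9, 26.2 and 23.1. Fmr1 KO replicate 2 stood above the rest of its group, and the log2 change of -0.33 ± 0.12 did not pass (adjusted p = 0.208). Tap1 and Tap2, the peptide transporter, had log2 changes of -0.33 and -0.13. Psmb9, a catalytic subunit of the immunoproteasome, was listed at 0 in 2 Fmr1 KO libraries and otherwise had 1.10, 1.14 and 0.391 there. The double mutant had 0.939, 1.42, 1.38 and 1.32 scaled TPM of Psmb9, Smad4 cKO ran from 0.689 to 1.96, and WT had 1.92, 2.38, 0.761 and 0.242. Psmb9 and Tap1 lie head to head on chromosome 17 and their promoter windows share 275 bases. Exons of Tapbp share 29.0% of their bases with other annotated genes, and those of Tap2 18.5%. Reads shared with genes on the opposite strand cannot be assigned without strand. Zbtb22 lies on the same strand as Tapbp, so strand would not separate the reads that they share. Psmb8, another immunoproteasome subunit, averaged 0.928 scaled TPM over all libraries and was listed at 0 in 6 of them.

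Of the 4 transcription factors tested, 3 were below 0 and none passed, with 1 at an unadjusted p under 0.05. Stat2 had 21.2, 24.0, 20.9 and 20.4 scaled TPM in the double mutant, 19.6, 23.4, 23.1, 20.3 and 21.2 in Fmr1 KO, a range of 18.2 to 28.5 in Smad4 cKO and 23.6, 23.7, 21.1 and 20.5 in WT. Its groups overlapped throughout, with a log2 change of -0.05 ± 0.07 for the Fmr1 label. Irf9, its DNA-binding partner, had 25.1, 33.1, 24.5 and 23.3 scaled TPM in the double mutant, 19.2, 27.4, 26.8, 26.4 and 23.7 in Fmr1 KO, a range of 21.2 to 28.3 in Smad4 cKO and 27.0, 24.5, 22.1 and 19.5 in WT. The groups of Irf9 overlapped, with a log2 change of 0.08 ± 0.09. Irf1, a factor induced by interferon gamma, had a log2 change of -0.40 ± 0.16 (adjusted p = 0.285). Irf7, which amplifies type I interferon genes, ranged from 0.920 to 7.69 scaled TPM over the libraries, both in WT. Nlrc5, the co-activator of class I genes, was below the level for testing. Nlrc5 ran from 0.485 to 0.641 scaled TPM in the double mutant and from 0.403 to 0.572 in Fmr1 KO, against 0.697 to 1.45 in Smad4 cKO and 0.605 to 1.87 in WT. Libraries with and without the Fmr1 KO label thus overlapped for Nlrc5, where the double mutant met WT. Double mutant and Smad4 cKO libraries did not overlap, as was so for 1.42% of tested genes in that direction. Most values of Nlrc5 lay below 1 scaled TPM, and it was described after they were seen. With no filter on low values Helz2 remained the one gene of the 38 that passed, so Nlrc5 did not.

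The RNA sensors and the antiviral effectors were below 0 for 3 of 3 and 7 of 7 genes, with medians of -0.19 and -0.33. Ddx58, the sensor known as RIG-I, had 5.16, 5.17, 3.95 and 5.68 scaled TPM in the double mutant, 5.46, 6.67, 4.60, 4.46 and 5.31 in Fmr1 KO, a lowest, median and highest value of 4.81, 6.11 and 6.35 in Smad4 cKO and 6.17, 7.74, 4.15 and 4.57 in WT. Its groups overlapped, with a log2 change of -0.14 ± 0.10. Ifih1, the sensor known as MDA5, had a log2 change of -0.19 ± 0.12. Trim25, the ubiquitin ligase that acts on RIG-I, had a log2 change of -0.38 ± 0.13 (adjusted p = 0.170).

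Oas1a, which encodes an oligoadenylate synthetase that turns on RNase L, had 0.871, 0.188, 0.462 and 0.358 scaled TPM in the double mutant and 1.21, 1.49, 0.181, 0.121 and 0.117 in Fmr1 KO. Its lowest, median and highest values were 0.793, 1.26 and 1.86 in Smad4 cKO, and WT had 2.05, 3.20, 0.794 and 1.01. Fmr1 KO split into 2 libraries above 1 and 3 below 0.2, and the log2 change of -0.70 ± 0.21 did not pass (adjusted p = 0.111). Xaf1, a pro-apoptotic partner of XIAP, had 4.36, 3.76, 3.18 and 5.60 scaled TPM in the double mutant and 2.51, 5.48, 4.14, 2.93 and 5.54 in Fmr1 KO. In Smad4 cKO its lowest, median and highest values were 5.44, 6.46 and 8.62, and WT had 4.41, 9.27, 4.19 and 7.43. Xaf1 overlapped between groups and had a log2 change of -0.53 ± 0.16 (adjusted p = 0.115).

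Rtp4, an interferon-induced protein that moves receptors to the cell surface, had 4.85, 4.55, 5.77 and 4.94 scaled TPM in the double mutant and 4.38, 7.71, 6.06, 5.86 and 7.64 in Fmr1 KO. Its range in Smad4 cKO was 4.54 to 8.69 with a median of 6.68, and WT had 8.89, 10.7, 8.90 and 5.30. WT held its 3 highest values, and the double mutant against WT gave a log2 change of -0.62 ± 0.21 (adjusted p = 0.200). Rsad2, the antiviral radical enzyme viperin, had a log2 change of -0.31 ± 0.18 for the Fmr1 label. Ifi27 and Bst2, which encodes the virus tether tetherin, were nearer 0, at -0.09 ± 0.12 and -0.07 ± 0.24.

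The group of PARP9, its partner DTX3L and PARP14, which modify proteins with ADP-ribose and ubiquitin, was below 0 for 3 of 3 genes (median -0.27). Parp14 had a median of 1.74 scaled TPM over the 9 libraries with the Fmr1 KO label, against 3.43 over the 10 without it (log2 change -0.55 ± 0.19, adjusted p = 0.202). Parp9 and Dtx3l had log2 changes of -0.15 and -0.27, and each shares exon bases with the other on the opposite strand. Of the interferon-induced GTPases, Gbp2 had a log2 change of -0.37 ± 0.16 (adjusted p = 0.298) and Gbp3 one of 0.16 ± 0.13, while Iigp1 averaged 0.532 scaled TPM and was not tested. Lgals3bp, a secreted glycoprotein, had a log2 change of 0.13 ± 0.21, and the chemokine gene Cxcl10 was listed at 0 in 6 libraries.

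Ifit3 went the other way, and was chosen for description after its values were seen. It encodes a member of the IFIT family, which binds foreign RNA together with IFIT1. Ifit3 had 4.95, 6.02, 5.59 and 9.38 scaled TPM in the double mutant and 7.10, 3.81, 4.59, 7.87 and 7.96 in Fmr1 KO. Its lowest, median and highest values were 1.94, 4.21 and 6.47 in Smad4 cKO, and WT had 5.35, 4.33, 2.55 and 1.63. The groups overlapped, and the log2 change of 0.64 ± 0.22 did not pass (adjusted p = 0.175). Ifit3 was the one of the 33 genes with an unadjusted p under 0.05 and a higher level, against 6.05% of all genes. Within day 26 its difference was 0.17 and within day 27 it was 1.17 on the log2 scale. Ifit3b, its near-identical neighbour, averaged 6.19 ± 3.27 in the double mutant, 5.23 ± 1.90 in Fmr1 KO, 2.97 ± 1.67 in Smad4 cKO and 3.05 ± 0.831 in WT (SD, scaled TPM), and reads may have been split between the pair. Ifit1 and Ifit2 had log2 changes of -0.24 and 0.18, and Ifitm2 and Ifitm3, which block viral entry, of -0.07 and -0.12. Ifitm3 ranged most widely of this family, from 0.917 to 22.7 scaled TPM over the libraries.

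**Figure D3:**
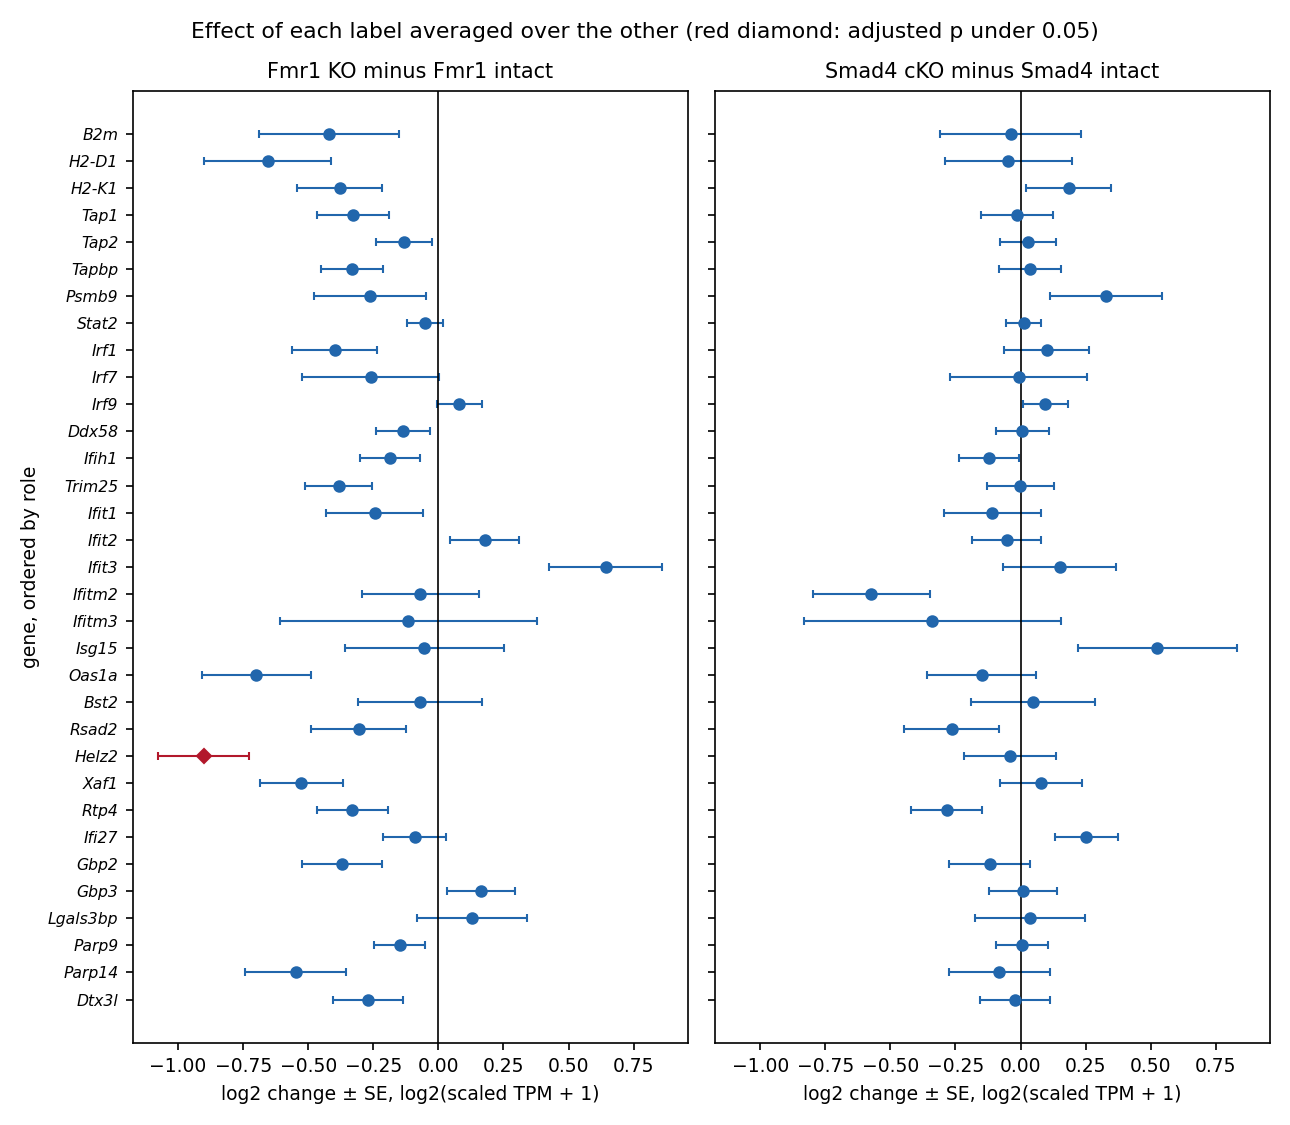
Log2 change (point) and SE (bar) of 33 genes, ordered by role, for the Fmr1 KO label averaged over Cre states (left) and the Smad4 cKO label averaged over Fmr1 states (right), on the log2(scaled TPM + 1) scale. On the left 28 points lie below 0 and Helz2, the red diamond at -0.90, passes the adjusted threshold; on the right 17 lie below 0 (8 to 24 when single libraries were left out) and none passes.

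The libraries also differed in RNA of other cell types. Astrocyte markers summed to 4320 to 7330 scaled TPM in every library. The 7 T cell markers summed to 0.371 to 1.46, with Cd3e and Cd3g listed at 0 in all 19 libraries and Lck in 0. The 12 endothelial markers were all lower with the Fmr1 KO label (median log2 change -1.04), and 7 of them passed by limma: Flt1, Pecam1, Tek, Ly6c1, Slco1a4, Abcb1a and Esam. Their summed level was 154 to 257 scaled TPM in the double mutant (median 199) and 123 to 315 in Fmr1 KO (median 166), against 256 to 501 in Smad4 cKO (median 370) and 181 to 714 in WT (median 450). None of the 12 was at 0 in any library. In bulk RNA, fewer endothelial nuclei and less RNA per nucleus cannot be told apart. The count of 7 was 1 without double mutant replicate 2, 3 without double mutant replicate 3, and 11 without WT replicate 3. It was 2 with quantile normalization, 3 with a mean TPM of at least 5, 11 with library weights, and 0 with day as a term or on days 26 and 27 alone. It was 4 without WT replicate 1, 2 or 4, Smad4 cKO replicate 3, or Fmr1 KO replicate 4 or 5.

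The 12 microglia markers were also all below 0 (median -0.36), and 0 of them passed by limma or had an unadjusted p under 0.05. They summed to 93.8 to 290 scaled TPM in the double mutant and 29.9 to 420 in Fmr1 KO, against 71.5 to 355 in Smad4 cKO and 53.8 to 338 in WT. The microglia markers Aif1 and Tyrobp were each listed at 0 in 1 library. The 5 macrophage markers tested were below 0 (median -0.73), of which 0 passed by limma and 4 had an unadjusted p under 0.05. The 6 of the list summed to 1.52 to 8.91 scaled TPM in the double mutant and 1.31 to 14.0 in Fmr1 KO, against 4.60 to 21.7 in Smad4 cKO and 7.80 to 26.1 in WT, and Pf4 was listed at 0 in 6 libraries. The 8 oligodendrocyte markers were above 0 (median 0.78), with 0 passing and 3 at an unadjusted p under 0.05. They summed to 717 to 3460 scaled TPM in the double mutant and 284 to 2950 in Fmr1 KO. The sums were 229 to 2770 in Smad4 cKO and 265 to 1390 in WT. In each genotype the highest of these sums was above every endothelial and microglia sum. Rn45s, the ribosomal RNA precursor, took a median of 17.8% of the listed TPM in the double mutant, 18.9% in Fmr1 KO, 25.4% in Smad4 cKO and 30.2% in WT. Of the 9 mural markers tested, 5 were below 0, with 1 passing as lower, 4 lower and 1 higher at an unadjusted p under 0.05, and a median of -0.12. Of the 10 neuron markers, 9 were above 0, with 0 passing, 1 at an unadjusted p under 0.05 and a median of 0.28. The 6 oligodendrocyte precursor markers were all above 0 (median 0.38), with 0 passing and 1 at an unadjusted p under 0.05. Among the 3 fibroblast markers tested, 2 were below 0, with 0 passing and a median of -0.26. The part of the macrophage, oligodendrocyte, oligodendrocyte precursor, mural, neuron, fibroblast and Rn45s differences in the levels of the 38 genes was not tested.

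**Figure D4:**
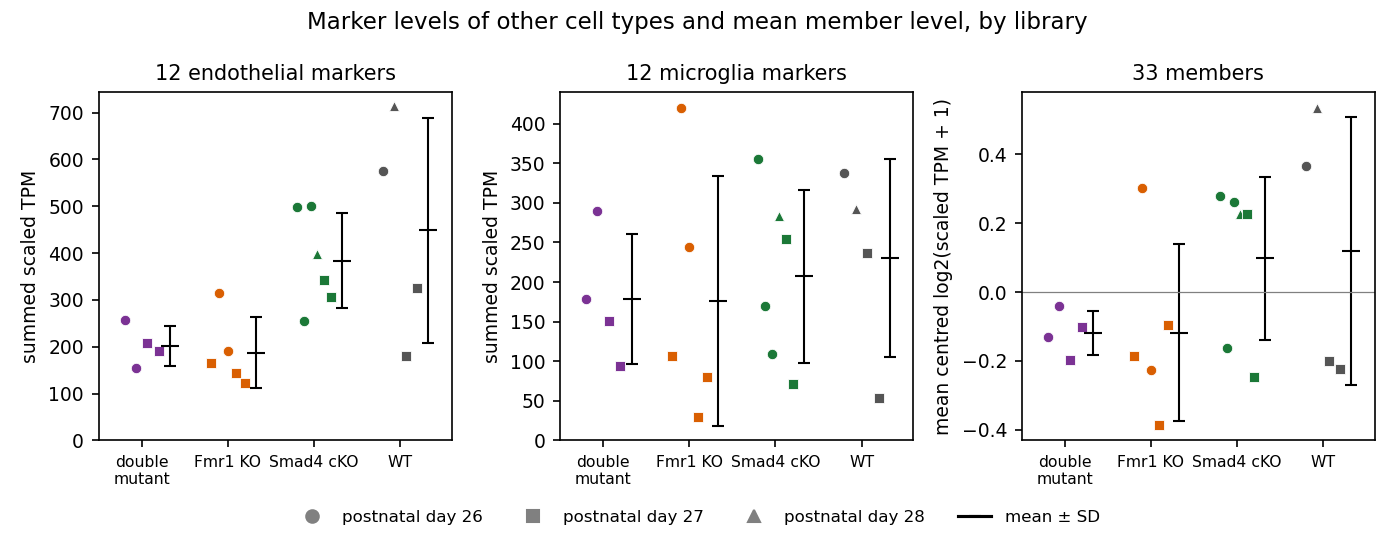
Summed scaled TPM of 12 endothelial markers (left) and 12 microglia markers (middle), and the mean centred log2(scaled TPM + 1) of 33 antigen presentation and interferon-response genes (right), in each library (points, shaped by postnatal day), with the mean and SD of each group as bars. Endothelial sums reach 714 in WT replicate 2, the library with the highest mean of the 33 genes (0.54), and stay at or below 315 in the 9 libraries with the Fmr1 KO label.

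When the mean endothelial marker level of each library was added to the fit, an alternative chosen after these values were seen, 6 of the 33 genes were below 0 for the Fmr1 label, with a median of 0.14. Helz2 then had a log2 change of -0.18 ± 0.14 (SE, limma adjusted p = 0.676), and 0 of 15049 genes passed, against 230 without the term. Fmr1 itself, which passed by limma without the term (adjusted p = 0.000529), was thus among the genes that did not pass with it. The signs of H2-K1 (0.03) and Oas1a (0.06) turned positive. With the microglia marker level instead, 25 of 33 genes were below 0 and Helz2 passed (-0.86, adjusted p = 0.0272). The endothelial level was itself lower with the Fmr1 KO label, so the term and the label share part of their variation. Library by library, WT replicate 2 had the highest endothelial sum of all 19 (714) and was the highest for 16 of the 33 genes. Fmr1 KO replicate 2 was the highest of its group for 27 of the 33 genes, and had the highest endothelial sum of its group (315) and the highest microglia (420) and astrocyte (7330) sums of all 19. WT replicate 3 had the lowest endothelial sum of WT (181) and the lowest Helz2 of WT, and was the lowest of WT for 14 genes. WT replicate 4 was the lowest of WT for 19 genes, with an endothelial sum of 325 and the lowest microglia sum of WT (53.8). Smad4 cKO replicate 6 and Fmr1 KO replicate 4 were each the lowest of their group for 15 genes, with endothelial sums of 306 and 143 that were not the lowest of their groups and microglia sums of 71.5 and 29.9 that were.

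Other genes of the pathway were counted over whole lists. Of 41 tested further interferon-stimulated genes, 33 were below 0 for the Fmr1 label, 5 passed as lower and 0 as higher, against 1.23% and 0.299% of all genes. Gbp4, a guanylate-binding protein gene, had the smallest p. It had 0.490, 0.490, 0.809 and 0.726 scaled TPM in the double mutant and 0.395, 0.375, 0.387, 0.344 and 0.553 in Fmr1 KO, against 0.934 to 2.58 in Smad4 cKO (median 2.01) and 1.14, 2.99, 1.86 and 1.44 in WT. Its 9 libraries with the Fmr1 KO label did not overlap the 10 without, as was so for 0.0864% of all genes in that direction, and the log2 change was -0.87 ± 0.15 (limma adjusted p = 0.0164). Slfn5, a Schlafen family gene, ran from 1.39 to 5.51 scaled TPM with the Fmr1 KO label (median 2.86), against 4.13 to 15.3 without it (median 8.20). Its log2 change was -1.25 ± 0.23 (adjusted p = 0.0179). Sp100, a nuclear body protein gene, had 0.613 to 1.63 scaled TPM with the Fmr1 KO label (median 0.833), against 1.41 to 5.47 without it (median 2.32), and fell by 0.82 on the log2 scale (adjusted p = 0.0249). Gbp9, another guanylate-binding protein gene, had 0.492 to 2.06 (median 1.19), against 1.28 to 4.67 without the label (median 2.22), and fell by 0.66 (adjusted p = 0.0372). Ifi203, of the nucleic acid-binding HIN-200 family, had 0.260 to 1.52 (median 0.623), against 0.506 to 3.77 without the label (median 1.58), and fell by 0.76 (adjusted p = 0.0437). Slfn5, Sp100, Gbp9 and Ifi203 each overlapped between the labels. Gbp4 averaged 0.411 scaled TPM in Fmr1 KO and 0.629 in the double mutant, and Ifi203 averaged 0.716 and 0.518. Sp100 averaged 0.841 in Fmr1 KO and 1 in the double mutant, and below 1 over the libraries with the label together. Gbp4, Ifi203 and Sp100 thus reached the mean TPM of 1 needed for testing only through the libraries without the label. The count of 5 includes all of them.

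**Figure D5:**
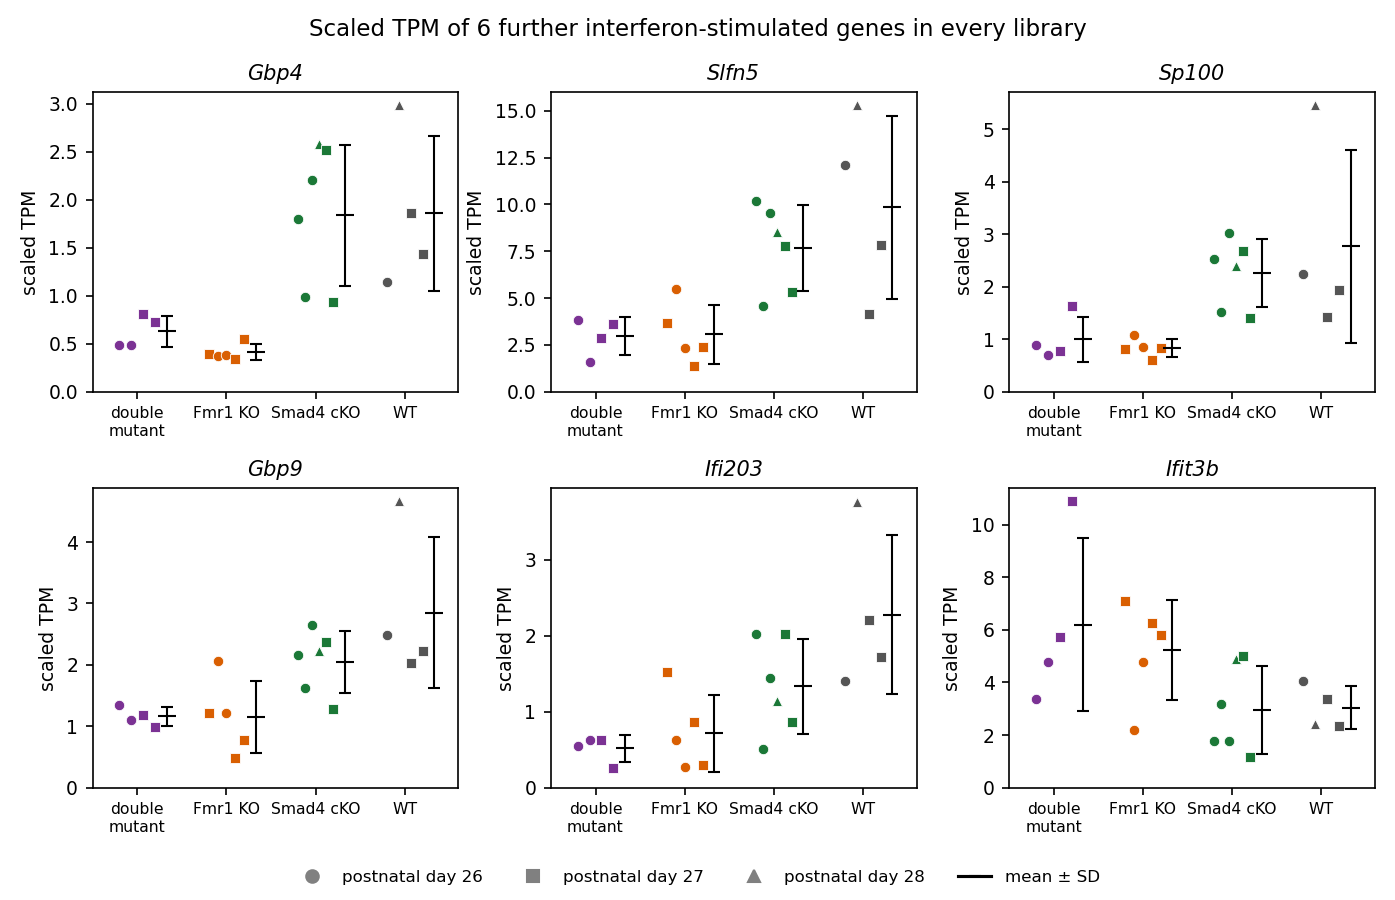
Scaled TPM of Gbp4, Slfn5, Sp100, Gbp9, Ifi203 and Ifit3b in every library (points, shaped by postnatal day) for the 4 genotypes, with the mean and SD of each group as bars. Gbp4 stays at or below 0.809 in the 9 libraries with the Fmr1 KO label and at or above 0.934 in the other 10, and Ifit3b has its highest value, 10.9, in the double mutant.

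The count of 5 depended on single libraries. It was 1 without double mutant replicate 2 and 2 without double mutant replicate 3 or Fmr1 KO replicate 4. It was 3 without WT replicate 2 or 4, Smad4 cKO replicate 1, 3, 4 or 5, Fmr1 KO replicate 3, or double mutant replicate 1 or 4. It was 2 with quantile normalization, 1 with day as a term or a mean TPM of at least 5, and 0 on days 26 and 27 alone. With the endothelial marker level in the fit it was 0, and the log2 changes were then -0.64 for Gbp4, -0.23 for Slfn5, -0.21 for Sp100, -0.16 for Gbp9 and -0.50 for Ifi203.

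Class II presentation genes, which are expressed by microglia and macrophages, were below 0 for 4 of 5 tested (median -1.14), and 0 passed by limma. An unadjusted p under 0.05 was found for 4 of them. One of them, H2-Aa, passed without WT replicate 4 or without Smad4 cKO replicate 2. H2-Ab1 had a log2 change of -1.18 ± 0.32 (adjusted p = 0.0751) and H2-Aa one of -1.14 ± 0.33 (adjusted p = 0.0958). Among the 20 receptors, kinases and regulators, 0 passed and 5 had an unadjusted p under 0.05, 4 lower and 1 higher. The receptor chains Ifnar1 and Ifnar2 averaged 31.1 ± 1.45 and 14.0 ± 1.79 scaled TPM in the double mutant, 32.8 ± 3.26 and 12.2 ± 1.19 in Fmr1 KO, 35.4 ± 4.00 and 16.6 ± 1.87 in Smad4 cKO, and 36.7 ± 6.62 and 14.1 ± 2.41 in WT (SD). Their log2 changes were -0.16 ± 0.08 and -0.20 ± 0.08 (adjusted p = 0.388 and 0.249). The kinase genes Jak1 and Tyk2 had log2 changes of 0.03 ± 0.07 and 0.01 ± 0.04. Irf3, which carries the signal of RNA sensors to interferon genes, averaged 68.7 to 73.1 scaled TPM in the 4 groups, and Mavs, their adaptor, 26.5 to 29.1. Among 13 nucleic acid sensing genes and 11 other class I presentation genes, 0 passed by limma. An unadjusted p under 0.05 was found for 4 of the 13, 2 lower and 2 higher. It was found for 3 of the 11, 2 lower and 1 higher. Of all genes, 7.14% were lower and 6.05% higher at that level.

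The Smad4 label was examined in both Fmr1 states, to ask whether loss of SMAD4 in Cre-expressing cells bears on these genes. Averaged over both, 0 of 33 genes passed by limma, against 1.81% of all genes, and 1 had an unadjusted p under 0.05, against 11% of all genes. Of the 33, 17 were below 0, with a median of -0.001, against 51.6% of all genes and a median of -0.004. The count of 17 was 8 without WT replicate 2, 10 without Fmr1 KO replicate 2 and 10 on days 26 and 27 alone, and reached 24 without WT replicate 4. Within day 26, 23 of 33 were below 0 (5 against 3 libraries), and within day 27, 5 of 33 (4 against 5). The endothelial markers were below 0 for 2 of 12 with the Smad4 cKO label, with a median of 0.08. In the double mutant against Fmr1 KO, 0 of 33 passed (0.405% of all genes) and 0 had an unadjusted p under 0.05 (5.48% of all genes). In Smad4 cKO against WT, 0 of 33 passed (0.784% of all genes) and 2 had an unadjusted p under 0.05 (8.28% of all genes).

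Ifitm2 had the smallest p for the averaged Smad4 label. It had 10.9, 19.8, 10.7 and 6.66 scaled TPM in the double mutant, against 10.3, 24.7, 11.4, 11.5 and 22.3 in Fmr1 KO. Smad4 cKO had a lowest, median and highest value of 6.67, 8.96 and 20.9, against 18.8, 20.5, 20.4 and 13.6 in WT. Smad4 cKO replicate 4 was the one library of its group above the lowest WT library, and the log2 change over both states was -0.57 ± 0.22 (adjusted p = 0.295). Exons of Ifitm2 share 40.9% of their bases with another annotated gene. Ifi27 had 26.3, 29.2, 26.5 and 27.8 scaled TPM in the double mutant, against 18.3, 37.5, 25.3, 17.2 and 24.1 in Fmr1 KO. It had a median of 31.4 and a highest value of 35.8 in Smad4 cKO, against 22.8, 28.4, 25.0 and 21.9 in WT. Its groups overlapped, with a log2 change of 0.25 ± 0.12 for the Smad4 label (adjusted p = 0.462). Isg15, a ubiquitin-like protein gene, had the largest change of the 33 in Smad4 cKO against WT, 1.05 ± 0.42 (adjusted p = 0.452). It had a lowest, median and highest value of 0.699, 1.91 and 3.98 scaled TPM in Smad4 cKO, against 1.44, 0.470, 0 and 0 in WT. In the double mutant Isg15 had 0.880, 2.28, 1.15 and 0, against 0.750, 3.20, 0.734, 0.977 and 0 in Fmr1 KO. The depth behind the values of Isg15 near 0 is unknown. Usp18, which removes ISG15 from proteins, averaged 0.845 scaled TPM and was not tested.

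Compared pairwise by the Fmr1 label, 0 of 33 genes passed in Fmr1 KO against WT, where 0% of all genes did and 8.23% had an unadjusted p under 0.05, as 8 of the 33 genes did. In the double mutant against Smad4 cKO 0 of 33 passed (0.0199% of all genes), with 3 at an unadjusted p under 0.05 (7.56% of all genes). The double mutant and WT differ in both labels. Between them 0 of 33 passed (0.957% of all genes), with 5 at an unadjusted p under 0.05 (12% of all genes). Genes below 0 numbered 26 of 33 in the double mutant against Smad4 cKO (47.1% of all genes) and 27 of 33 in Fmr1 KO against WT (50% of all genes). The comparisons with WT share its 4 libraries, and those with Smad4 cKO share its 6. Gbp2 had 1.27, 0.733, 0.554 and 0.994 scaled TPM in the double mutant, 1.21, 1.03, 0.471, 0.236 and 0.683 in Fmr1 KO, a median of 1.04 in Smad4 cKO and 1.86, 2.42, 0.860 and 1.61 in WT. Its log2 change was -0.64 ± 0.22 in Fmr1 KO against WT (adjusted p = 0.358). Rsad2 had 0.716, 0.309, 0.233 and 1.01 in the double mutant and 1.22, 1.37, 0.149, 1.09 and 1.34 in Fmr1 KO. Its log2 change was -0.36 ± 0.26 between these groups, which differ in the Smad4 label. It ran from 0.618 to 1.62 in Smad4 cKO, and WT had 2.13, 1.91, 0.798 and 0.647. Psmb9 had the smallest p of the 33 in the double mutant against Fmr1 KO, with a log2 change of 0.64 ± 0.31 (adjusted p = 0.910).

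The interaction tests whether the Smad4 effect differs between Fmr1 states. In it 0 of 33 genes and 0% of all genes passed by limma, and 0 of the 33 and 1.66% of all genes had an unadjusted p under 0.05. The smallest p belonged to Gbp2 (0.53 ± 0.31), Isg15 (-1.05 ± 0.61) and Psmb9 (0.63 ± 0.43), with adjusted p = 1 for each. A difference between the Fmr1 effects with and without Cre was thus not shown for any of the 33 genes.

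Of the other pathway genes, 0 passed by limma in any comparison but the averaged Fmr1 label. Socs1, which encodes a feedback inhibitor of JAK kinases, came nearest. Its log2 change was 1.16 in the double mutant against WT (adjusted p = 0.0516). It was 0.94 in Smad4 cKO against WT (adjusted p = 0.109) and 0.57 for the averaged Smad4 label (adjusted p = 0.148). Socs1 was also higher in Fmr1 KO against WT, by 0.97, the largest change of the 20 receptors, kinases and regulators there. In the double mutant against Fmr1 KO none of the 20 had a log2 change above 0.28. Rnaseh2b, a subunit of the enzyme that cleaves RNA paired with DNA, had a log2 change of 0.46 in the double mutant against WT (adjusted p = 0.0739) and 0.29 for the averaged Smad4 label (adjusted p = 0.0664). In Fmr1 KO against WT, Gbp4 had a log2 change of -0.98 (adjusted p = 0.150) and Slfn5 one of -1.37 (adjusted p = 0.163). In the double mutant against Smad4 cKO, Gbp4 had a log2 change of -0.76 (adjusted p = 0.414).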

How the data were processed

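Nuclear RNA was sequenced from sorted cortical astrocyte nuclei of 19 libraries, after ribosomal RNA depletion, per the labels' protocols. The authors deposited one table of TPM values per gene and library; per the submitters' processing notes the tools were bcl2fastq 2.20, MultiQC 1.0, STAR 2.5.3a and HOMER 4.10.4, and the build was mm10. The sources used here do not give whether exons or whole gene bodies were counted, or whether strand was used. TPM keeps no depth, so depth is unknown and no counting interval is given; the listed TPM summed to 665382 to 716222 per library.

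Scaled TPM is TPM over a library factor (0.9207 to 1.069) found by the median-of-ratios method from 14084 genes. Of 24537 genes, the 15049 whose TPM averaged 1 or more were tested as log2(scaled TPM + 1) with limma 3.58.1 in R 4.3.3 (trend, 4 groups in 1 fit, no covariate), with Benjamini-Hochberg adjustment over all of them and a threshold of 0.05. A log2 change on this scale understates the change of low genes. The fit was tested on simulated data. Helz2, as the gene that had passed, was also compared by exact permutation. Promoter motifs and figures were made with Python 3.11.15, pandas 2.3.3 and matplotlib 3.10.9. Gene positions came from GENCODE on GRCm38, and near-identical or overlapping genes are uncertain. A cell type level is the mean of its markers' log2 values.

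The genes and lists were chosen with earlier results of these data known. Values by library, or the range where a group or label holds over 5 libraries, are given for genes that passed, for the 3 smallest p in each comparison, for the 5 highest genes and for genes with a library standing apart. Of other pathway genes, those that passed, some of the smallest p in each comparison, and core signalling genes are named, of which 1 is not reported here. H2-D1, Ifit3, Ifit3b and Nlrc5 were described after their values were seen.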

Additional observations from a re-analysis of the deposited data

Results flagged for a closer look

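In 6 of 152 sets of 1 gene in 1 genotype, a single library stood apart from the rest by Dixon's test, which chance does in about 1 set in 20. Values are scaled TPM.

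Ifit1, whose protein binds foreign RNA, had 1.77 in double mutant replicate 4, against 0.581 to 0.673 in the other 3 libraries. It ranged from 0.561 to 1.63 in Fmr1 KO, 0.464 to 2.13 in Smad4 cKO and 0.545 to 2.05 in WT, so that library lay within the range of the other genotypes. Iigp1, an interferon-induced GTPase gene, had 0.434 in double mutant replicate 3, against 0.191 to 0.222 in the others.

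Psmb8, an immunoproteasome subunit gene, had 2.51 in Fmr1 KO replicate 3, against 0 to 0.321 in the other 4 libraries. It was listed at 0 in 2 double mutant libraries, with 1.13 and 1.63 in the others, and had 1.54, 4.23, 0.915 and 0 in WT. Rsad2 had 0.149 in the same Fmr1 KO library, against 1.09 to 1.37 in the other 4.

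Ddx58, the sensor RIG-I, had 4.81 in Smad4 cKO replicate 6, against 5.96 to 6.35 in the other 5 libraries. Usp18, which removes ISG15 from proteins, had 2.47 in WT replicate 2, against 0.795 to 0.965 in the other 3. WT replicate 2 was also the highest of all 19 libraries for 16 of the 33 tested genes.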

How the results depend on the processing

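Helz2, the one gene of the 33 to pass for the averaged Fmr1 label, passed in 27 of 34 alternatives, with a log2 change from -1.06 to -0.18 and an adjusted p from 0.000693 to 0.692 by limma. The count of genes passing in that comparison was 0 with quantile normalization, with day as a term, on days 26 and 27 only, with the endothelial marker level and with both marker levels. It was 2 with library weights, which also gave 1 in the double mutant against WT. Leaving out 1 library gave 0 to 2 for the averaged Fmr1 label, 0 without double mutant replicate 2 and 2 without WT replicate 3 (Trim25 and Helz2) or Fmr1 KO replicate 2 (Tapbp and Helz2). It gave 0 to 1 in Fmr1 KO against WT and 0 to 1 in the double mutant against WT, with Helz2 passing without WT replicate 3. All other counts of the 33 genes passing stayed at their reported value. Counts below 0 moved more: leaving out 1 library gave 25 to 28 for the averaged Fmr1 label, 23 to 28 in Fmr1 KO against WT, 25 to 28 in the double mutant against Smad4 cKO and 8 to 24 for the averaged Smad4 label. With TPM as deposited these counts were 26, 22, 24 and 14, and with the endothelial marker level 6, 8, 10 and 20.

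The sign of Oas1a turned with the endothelial marker level, to 0.052 in the double mutant against Smad4 cKO and 0.057 for the averaged Fmr1 label, and to 0.022 for the averaged Fmr1 label with both marker levels. That of H2-K1 turned to 0.028 with the endothelial level. The cause of the other changes was not tested. Ifit3 stayed positive, from 0.53 to 0.94, and never passed.

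Replicate numbers did not pair the libraries. Same-numbered pairs had correlations of -0.266 to 0.202 (25 pairs), against -0.405 to 0.419 in 109 other pairs. With the replicate block the count for the averaged Fmr1 label was 0, and Helz2 had a log2 change of -0.92 (adjusted p = 0.0853). The counts of other interferon-stimulated genes and of endothelial markers passing were then 0 as well.

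Depth is unknown, so values below about 1 scaled TPM carry an error that cannot be given. Most values of Cxcl10, Iigp1, Psmb8 and Usp18 lay there, as did most of Gbp2, Gbp4, Ifi203, Isg15, Sp100, Oas1a and Nlrc5 with the Fmr1 KO label.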
